A study of Homo sapiens with 6 samples.

Results

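The genes described here are the 10 listed members of the MYC, MAX and MXD network: MYC, MAX, MXD1, MXD3, MXD4, MXI1, MNT, MGA, MLX and MLXIP. They were matched by symbol, and all 10 have a row among the 26485 gene symbols of the deposited count table. The RNA came from PC-9, a human lung adenocarcinoma line that depends on mutant EGFR, grown in RPMI medium with serum and with no drug named in the labels. One population carried a stable short hairpin RNA (shRNA) against IFITM3, an interferon-induced membrane protein, and is called shIFITM3. The other carried a control shRNA and is called shControl. The table's columns name the control ShEV, which leaves unclear whether it holds a hairpin or only the vector. Each group has 3 samples that the labels call biological replicates. Neither the number of hairpins nor whether replicates came from separate infections is given. The p-values therefore set the group difference against the spread among these samples within 2 stable populations. An effect of losing IFITM3 and any other difference between the populations cannot be told apart.

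MYC is a transcription factor that binds DNA as a dimer with MAX, at the E-box sequence CACGTG, and activates genes of ribosome production, metabolism and growth. MAX also pairs with the MXD proteins (MXD1, MXI1, MXD3 and MXD4), with MNT and with MGA, which occupy the same sites and recruit repressor complexes, so MYC and these proteins compete for MAX and for DNA. MLX is a MAX-like protein that pairs with MLXIP (also called MondoA) and MLXIPL (ChREBP), sensors of sugar phosphates, and also with MXD1, MXD4 and MNT. MYC is commonly driven by growth factor receptor signalling, while several MXD genes are known for their expression in resting or differentiating cells.

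Total counts were 21965506 to 23852371 in shIFITM3 and 21342028 to 77228760 in shControl, so shControl replicate 2 was the deepest library. IFITM3 was at 10.4, 12.9 and 9.75 CPM (counts scaled to library size) in shIFITM3, against 56.96, 60.5 and 62.7 CPM in shControl. The labels of all 6 samples thus go with the level of the targeted gene. The epithelial genes EPCAM, KRT7, KRT8, KRT18 and KRT19 were abundant in all samples. The lung lineage genes NKX2-1, NAPSA, SFTPB and SFTPC were too low to be tested. The summed level of 13 epithelial and lung markers was 8633 to 8851 CPM in shIFITM3 and 9982 to 10119 CPM in shControl. Of the 9 tested 2 rose and 3 fell, where 27.7% and 28.4% of all tested genes did. In shIFITM3 KRT8 was at 2565 to 2632 CPM, KRT18 at 1423 to 1501, CDH1 at 114 to 120 and CLDN4 at 422 to 448 CPM. In shControl KRT8 was at 3644 to 3691 CPM, KRT18 at 1773 to 1810, CDH1 at 175 to 178 and CLDN4 at 315 to 329 CPM. Among 9 leukocyte markers CD3D and MS4A1 were at 0 in every sample. The leukocyte sum, 77.7 to 82.9 CPM in shIFITM3 and 64.4 to 71.7 CPM in shControl, came mostly from CD68. Of the 2 leukocyte markers tested both rose, CD68 and CSF1R, the receptor gene CSF1R being at 4.68, 4.09 and 4.43 CPM in shIFITM3 and at 1.27, 0.545 and 0.948 CPM in shControl. Of 7 fibroblast markers DCN and LUM were at 0, and the sum was 9.99 to 13.8 CPM in shIFITM3 and 9.18 to 10.5 CPM in shControl. Endothelial markers summed to 5.52 to 6.27 CPM in shIFITM3 and 3.53 to 4.38 CPM in shControl, a sum of genes that went opposite ways. KDR was at 2.43 to 2.91 CPM in shIFITM3 and 0.188 to 0.620 CPM in shControl, and CDH5 at 1.73 to 2.34 CPM in shIFITM3 and 0.438 to 0.989 CPM in shControl, and both rose. PECAM1 fell, at 0.739 to 0.908 CPM in shIFITM3 and 2.48 to 3.11 CPM in shControl. All 3 erythroid markers were at 0. The part of these markers in the results was not tested. In bulk RNA, fewer cells expressing a gene and less of its RNA per cell cannot be told apart, and CPM values do not show a change in total RNA per cell.

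MYC and MAX RNA did not pass the test. Of the 6 genes for repressive MAX partners 4 rose in shIFITM3 (MXD4, MNT, MXI1 and MXD1) and MXD3 fell. On the MLX side MLXIP rose and MLX did not pass. All 10 members were abundant enough to be tested, and 6 of them (60.0%) had an adjusted p under 0.05, with 5 rises and 1 fall. Across all 14018 tested genes 56.1% passed, 27.7% as rises and 28.4% as falls (edgeR quasi-likelihood test, Benjamini-Hochberg adjustment over all tested genes), so the share of members called was close to the background. The members' median log2 fold change, shIFITM3 over shControl, was 0.28, against -0.000063 for all tested genes. Their median absolute log2 fold change was 0.51, against 0.25 for all tested genes. The members were chosen with earlier results of these data known, so these comparisons carry no test.

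**Figure D1:**
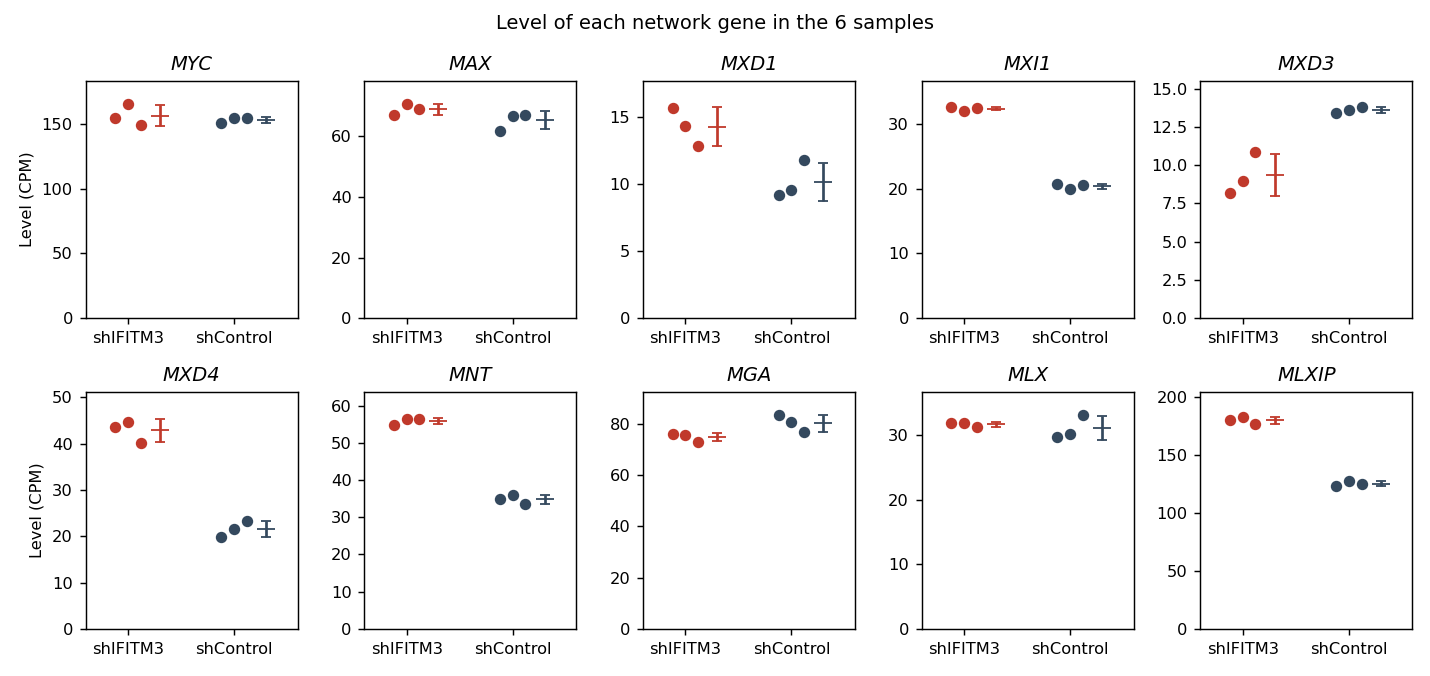
Level of each of the 10 network genes in CPM (vertical axes start at 0) in the 3 shIFITM3 samples (red, left) and the 3 shControl samples (dark, right). Points are samples, and the bar beside them is the mean with its SD. MXD4, MNT, MXI1, MXD1 and MLXIP were higher and MXD3 and MGA lower in every shIFITM3 sample than in any shControl sample. The points of MYC, MAX and MLX overlapped. Of all tested genes 60.9% had ranges that did not overlap.

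MYC (chromosome 8, 127735434 to 127742951, GRCh38), the oncogenic activator of the network, was at 154, 165 and 149 CPM in shIFITM3 and at 150.2, 154 and 154 CPM in shControl. These values rest on 3398, 3805 and 3563 counts in shIFITM3 and on 3188, 11870 and 4229 counts in shControl. The lowest and the highest of the 6 values were both shIFITM3 samples, and the groups overlapped. The log2 fold change was 0.03 with a standard error (SE) of 0.040 (edgeR adjusted p = 0.541), and its 95% interval ran from -0.053 to 0.11. Only RNA was measured, so these values say nothing of MYC protein.

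MAX (chromosome 14, 65006101 to 65102695), the shared dimer partner, was at 67.0, 70.6 and 69.1 CPM in shIFITM3 and at 61.9, 66.8 and 67.1 CPM in shControl. The ranges met only between the lowest shIFITM3 sample and the highest shControl sample. The log2 fold change was 0.07 (SE 0.048, edgeR adjusted p = 0.198), with a 95% interval from -0.025 to 0.17.

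MXD4 (chromosome 4, 2247432 to 2262109) had the largest log2 fold change of the members. It encodes a MAX partner that recruits the SIN3 corepressor. Its level was 43.7, 44.8 and 40.2 CPM in shIFITM3 and 19.9, 21.5 and 23.4 CPM in shControl, so every shIFITM3 sample lay well above every shControl sample. The means were 42.9 ± 2.43 CPM in shIFITM3 and 21.6 ± 1.75 CPM in shControl (SD, n = 3 each). This was a 1.98-fold rise, 0.98 on the log2 scale (SE 0.069, edgeR adjusted p = 1.55e-11), larger in size than that of 93.0% of tested genes.

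MXI1 (chromosome 10, 110207605 to 110287365), which encodes another SIN3-recruiting repressor, was at 32.6, 32.03 and 32.5 CPM in shIFITM3 and at 20.6, 19.9 and 20.5 CPM in shControl. The replicates were tight, with a coefficient of variation of 0.872% in shIFITM3 and 1.98% in shControl. The log2 fold change was 0.67 (SE 0.067, edgeR adjusted p = 7.64e-09).

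MXD1 (chromosome 2, 69915109 to 69942945), the founding member of the family and known for its induction during differentiation, had the lowest mean level per length of the 10 genes. Its level was 15.7, 14.3 and 12.8 CPM in shIFITM3 and 9.19, 9.56 and 11.8 CPM in shControl. The groups did not overlap, though the gap was narrow between shIFITM3 replicate 3 and shControl replicate 3. It rose by 0.49 on the log2 scale (SE 0.11, edgeR adjusted p = 0.000535). In the GENCODE 29 annotation 3.73% of its exon bases are shared with SNRNP27 on the same strand. SNRNP27 was at 28.4, 29.6 and 30.1 CPM in shIFITM3 and at 26.5, 24.0 and 24.9 CPM in shControl, a rise (edgeR adjusted p = 0.00565), and its part in the value of MXD1 was not tested.

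MXD3 (chromosome 5, 177305499 to 177312752), the family member known for expression in proliferating cells, went the other way. It was at 8.17, 8.996 and 10.8 CPM in shIFITM3 and at 13.4, 13.6 and 13.8 CPM in shControl. All shIFITM3 values lay below the control values, and they were spread more widely, with a coefficient of variation of 14.6% against 1.32% in shControl. The log2 fold change was -0.54 (SE 0.11, edgeR adjusted p = 0.000146). In GENCODE 29, 22.5% of the exon bases of MXD3 lie opposite PRELID1 and 18.0% on the same strand as RAB24. PRELID1 was at 90.7, 96.3 and 89.0 CPM in shIFITM3 and at 109.96, 113 and 110.5 CPM in shControl, a fall (edgeR adjusted p = 6.83e-06). RAB24, at 7.40, 6.43 and 6.69 CPM in shIFITM3 and 7.02, 6.54 and 5.51 CPM in shControl, did not pass. The strand setting of the counting is not given in the sources used here, and the part of these neighbours in the value of MXD3 was not tested.

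MNT (chromosome 17, 2384073 to 2401060), the widely expressed MAX partner that opposes MYC in most tissues, was at 54.8, 56.5 and 56.3 CPM in shIFITM3 and at 34.9, 36.0 and 33.6 CPM in shControl. The groups were far apart relative to the spread within them. The rise was 1.599-fold, or 0.68 on the log2 scale (SE 0.054, edgeR adjusted p = 1.3e-10).

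MGA (chromosome 15, 41621224 to 41769940), a very large MAX partner that belongs to the polycomb complex PRC1.6, was at 75.9, 75.4 and 72.8 CPM in shIFITM3 and at 83.3, 80.5 and 76.6 CPM in shControl. Although the ranges did not overlap, the difference was small, with a log2 fold change of -0.10 (SE 0.046, 95% interval -0.20 to -0.0051), and it missed the threshold (edgeR adjusted p = 0.068). Non-overlap was found in 60.9% of tested genes, 30.1% with shIFITM3 higher and 30.8% with it lower. MGA passed under upper-quartile scaling (adjusted p = 0.0313), with all libraries thinned to the smallest total (0.0366) and without shControl replicate 3 (0.039).

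**Figure D2:**
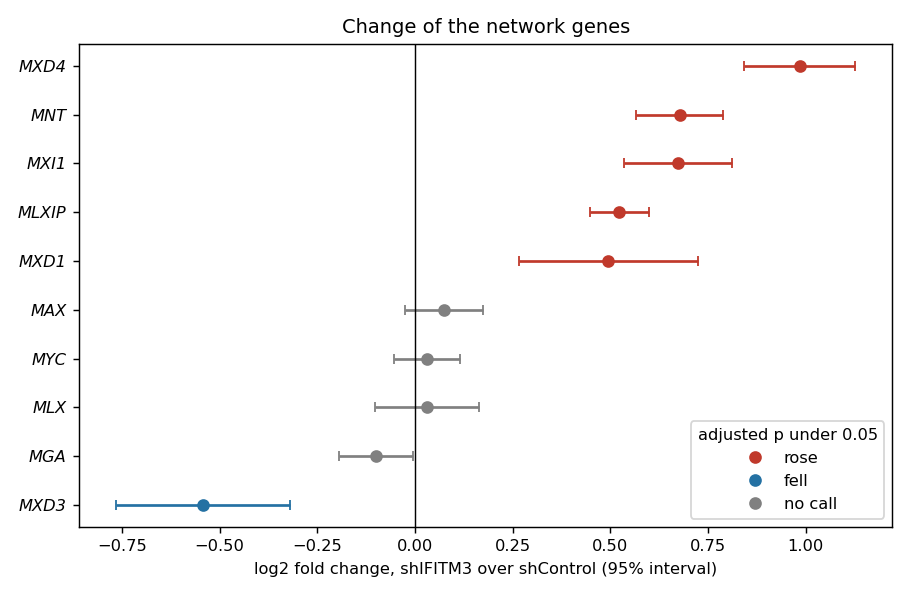
Log2 fold change, shIFITM3 over shControl, of the 10 network genes (horizontal axis), with 95% intervals from the edgeR fit. Red genes rose, the blue gene fell and grey genes did not pass an adjusted p of 0.05. MXD4 is highest at 0.98 and MXD3 lowest at -0.54, and the intervals of MAX, MYC and MLX include 0.

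The promoter windows of the members show where the E-box that these proteins bind lies at their own start sites. The windows run from 250 bases before to 50 bases after a RefSeq start site (GRCh38.p14). The windows examined were 14, for 9 of the members. No window of MYC was examined, so the presence of either motif at its start sites was not tested. The E-box CACGTG, which reads the same on both strands, was found in 3 windows, those of MXD4, MNT and MLX, and in 7.26% of all 35116 windows. A forkhead-type motif, GTAAACA on either strand, the core bound by FOXO factors, was found in 2 of the 14 windows and in 3.42% of all windows. Both were among the 3 windows of MXI1. MXI1 is known as a FOXO target, and the part of FOXO factors in its level was not tested. Both motifs were chosen with the changes of the members known, and they do not overlap each other here. The 5 windows are shown, 5′ to 3′ on the strand of the gene, with the motif in capitals:
MXD4, chr4:2262060-2262359, minus strand: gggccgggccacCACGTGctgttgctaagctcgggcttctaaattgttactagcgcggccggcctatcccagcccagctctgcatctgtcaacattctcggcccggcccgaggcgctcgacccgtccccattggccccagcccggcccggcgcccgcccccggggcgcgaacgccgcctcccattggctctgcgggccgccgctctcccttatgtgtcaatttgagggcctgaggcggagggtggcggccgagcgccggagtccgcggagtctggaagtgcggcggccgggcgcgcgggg
MNT, chr17:2401011-2401310, minus strand: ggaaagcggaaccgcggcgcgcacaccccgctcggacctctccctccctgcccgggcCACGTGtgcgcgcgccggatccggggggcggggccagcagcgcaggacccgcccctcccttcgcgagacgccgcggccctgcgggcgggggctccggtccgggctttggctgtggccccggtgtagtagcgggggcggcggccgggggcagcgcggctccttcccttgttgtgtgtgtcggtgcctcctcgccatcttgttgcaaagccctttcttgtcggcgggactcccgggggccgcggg
MLX, chr17:42566850-42567149, plus strand: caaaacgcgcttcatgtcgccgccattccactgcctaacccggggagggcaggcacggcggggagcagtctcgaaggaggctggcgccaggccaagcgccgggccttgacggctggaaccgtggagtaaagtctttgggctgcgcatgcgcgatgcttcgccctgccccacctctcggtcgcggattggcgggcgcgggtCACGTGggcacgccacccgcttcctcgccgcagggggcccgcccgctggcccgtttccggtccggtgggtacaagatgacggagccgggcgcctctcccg
MXI1 upstream window, chr10:110209981-110210280, plus strand: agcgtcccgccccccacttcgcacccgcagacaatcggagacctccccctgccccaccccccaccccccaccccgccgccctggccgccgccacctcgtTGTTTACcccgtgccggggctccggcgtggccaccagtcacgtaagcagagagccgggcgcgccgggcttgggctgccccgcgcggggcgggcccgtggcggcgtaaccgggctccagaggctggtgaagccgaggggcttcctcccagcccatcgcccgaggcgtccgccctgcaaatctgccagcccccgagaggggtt
MXI1 downstream window, chr10:110225746-110226045, plus strand: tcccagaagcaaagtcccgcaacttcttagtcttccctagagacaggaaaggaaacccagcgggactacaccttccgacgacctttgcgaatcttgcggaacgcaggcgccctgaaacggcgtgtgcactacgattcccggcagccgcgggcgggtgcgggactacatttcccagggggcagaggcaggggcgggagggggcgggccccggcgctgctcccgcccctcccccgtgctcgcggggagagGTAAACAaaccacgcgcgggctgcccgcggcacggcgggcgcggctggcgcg
The E-box begins 238 bases before the start site in MXD4, 193 in MNT and 50 in MLX. The forkhead match begins 151 bases before the start in the upstream MXI1 window shown and 2 bases before it in the downstream one. The remaining MXI1 window lies upstream of both and holds neither motif. Of the members with the E-box in this window MXD4 and MNT rose and MLX did not pass. MXD1 and MLXIP, which rose, had neither motif in their windows.

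On the MLX side of the network only MLXIP among the members passed the test. MLX (chromosome 17, 42567100 to 42573203), the common partner on this side, was at 31.8, 31.9 and 31.2 CPM in shIFITM3 and at 29.7, 30.2 and 33.2 CPM in shControl, with the shIFITM3 values inside the control range. Its log2 fold change was 0.03 (SE 0.064, 95% interval -0.10 to 0.16, edgeR adjusted p = 0.716). In GENCODE 29, 18.1% of its exon bases lie opposite PSMC3IP, which was at 6.02 to 7.13 CPM in shIFITM3 and 6.12 to 6.64 CPM in shControl. MLXIP (chromosome 12, 122078756 to 122147344), the sugar-phosphate sensor that pairs with MLX, was at 180.1, 182 and 176 CPM in shIFITM3 and at 123, 127 and 125 CPM in shControl. The groups were clearly separate, and MLXIP rose 1.44-fold, by 0.52 on the log2 scale (SE 0.037, edgeR adjusted p = 1.57e-11). Its liver-type relative MLXIPL, a network gene outside the member list, was scarce at 4.59, 6.04 and 4.56 CPM in shIFITM3 and 2.92, 2.93 and 2.12 CPM in shControl, and rose by 0.91 on the log2 scale (SE 0.19, edgeR adjusted p = 0.000215).

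The other MYC family genes added little RNA. MYCN had 0 counts in all 6 samples, which allows up to 0.141 CPM in the shallowest library and 0.0388 CPM in the deepest. MYCL was at 3.22, 3.09 and 1.34 CPM in shIFITM3 and at 1.70, 3.13 and 3.06 CPM in shControl, with wide overlap (log2 fold change -0.10, SE 0.27, edgeR adjusted p = 0.78).

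Levels of different genes were compared as CPM per kb of exon, using the exon union of GENCODE 29 basic transcripts. MYC stood first in both groups, at 52.1 ± 2.78 CPM per kb in shIFITM3 and 50.9 ± 0.767 in shControl (SD, n = 3 each). In shIFITM3 it was followed by MLXIP (19.1), MAX (16.8), MLX (12.2), MNT (11.2), MXD4 (10.6), MXI1 (7.99), MGA (4.92), MXD3 (2.84) and MXD1 (2.55 CPM per kb). Within that order the sample ranges of MNT and MXD4 overlapped, as did those of MXD3 and MXD1. In shControl the order after MYC was MAX (15.9), MLXIP (13.2), MLX (11.98), MNT (6.97), MXD4 (5.33), MGA (5.28), MXI1 (5.02), MXD3 (4.14) and MXD1 (1.81 CPM per kb). There the ranges of MXD4, MGA and MXI1 overlapped. MLXIP thus stood above MAX in shIFITM3 and below it in shControl. The authors' annotation may use other exons, which would shift levels per length and could change this order, but not the fold change of a single gene.

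**Figure D3:**
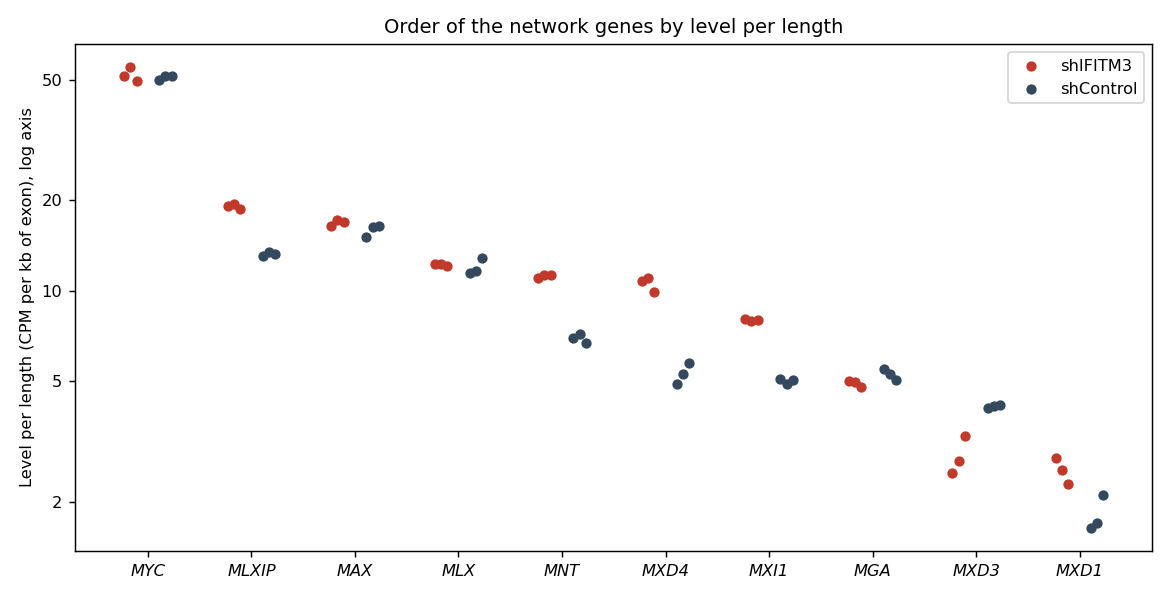
Level per length of the 10 network genes, in CPM per kb of exon on a log axis, ordered by the shIFITM3 mean. Each point is a sample, with shIFITM3 in red on the left of each pair and shControl dark on the right. MYC is highest at about 50 to 55 CPM per kb in both groups, and MXD1 is lowest.

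On this scale the summed RNA of repressive partners was higher relative to MYC in every shIFITM3 sample than in any shControl sample. The summed level per length of MXD1, MXD3, MXD4, MXI1, MNT and MGA was 0.779, 0.735 and 0.797 times that of MYC in shIFITM3 samples, against 0.563, 0.556 and 0.562 times in shControl samples. Within the sum MXD3 and MGA had lower means in shIFITM3, at 2.84 and 4.92 CPM per kb, against 4.14 and 5.28 in shControl. MAX over MYC was 0.318, 0.312 and 0.339 in shIFITM3 and 0.301, 0.317 and 0.318 in shControl, with overlapping ranges. The make-up of the MXD family (MXD1, MXI1, MXD3 and MXD4) differed as well. MXD4 gave 44.7%, 45.6% and 42.1% of the family's summed level per length in shIFITM3, against 31.3%, 33.1% and 33.7% in shControl. MXD3 gave 10.3%, 11.3% and 14.01% in shIFITM3, against 25.9%, 25.8% and 24.5% in shControl. On the MLX side, MLXIP over MLX was 1.56, 1.57 and 1.55 in shIFITM3 and 1.13, 1.16 and 1.03 in shControl. The summed ratio and the family shares weight genes by exon length, so other lengths would change their values in both groups. These ratios are descriptions of RNA and carry no test.

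Genes known to be activated by MYC were mostly lower in shIFITM3. Over the 4 activated lists together 67 of 84 tested genes fell (79.8%) and 7 rose (8.33%), where 28.4% of all tested genes fell and 27.7% rose. Their median log2 fold change was -0.26, against -0.000063 for all tested genes. Abundant genes can pass the test at smaller changes, and the lists were not matched to all tested genes for level. The members of these lists respond to many other regulators besides MYC, and the part of MYC or its partners in their levels was not tested. All lists around the network were chosen with earlier results of these data known. Their shares beside those of all tested genes are therefore descriptions and carry no test.

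Of 28 tested genes of ribosome biogenesis and the nucleolus 23 fell and 1 rose, the median log2 fold change being -0.29. NOP56, a core protein of snoRNA particles, was at 202, 211 and 207 CPM in shIFITM3 and at 326, 305 and 316 CPM in shControl (log2 fold change -0.61, edgeR adjusted p = 3e-13). Every shIFITM3 value was far below the control values. NCL (nucleolin), NPM1 (nucleophosmin) and the RNA acetyltransferase gene NAT10 fell by 0.37, 0.41 and 0.48 on the log2 scale. NPM1 has processed pseudogenes that could take reads, so its value is uncertain. RIOX2 was the 1 rise (0.21).

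Nucleotide, polyamine and one-carbon genes were also mostly lower, with 16 of 19 lower and 2 higher (median -0.26). The purine synthesis genes ADSL and PAICS had log2 fold changes of -0.62 and -0.38, the folate enzyme gene MTHFD1 -0.55 and the thymidylate synthase gene TYMS -0.61. ODC1, the polyamine enzyme gene that is a classical MYC target, rose slightly (0.07, edgeR adjusted p = 0.0449), at 564, 534 and 544 CPM in shIFITM3 and 535, 511 and 516 CPM in shControl, so that the groups overlapped. CTPS1 rose by 0.19. With upper-quartile scaling, without the filter on low counts, or without shIFITM3 replicate 1 or 3 or shControl replicate 2 or 3, 1 gene of the list rose in place of 2. ODC1 is named here after its value was seen, as are CTPS1 and RIOX2.

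In the list of glycolysis, glutamine and amino acid uptake 12 of 14 genes fell and 1 rose, and the median was -0.43. The 4 members with the smallest p were SLC7A5 (-0.88), SLC3A2 (-0.59), SLC2A1 (-0.61) and GAPDH (-0.45), and GAPDH too has many processed pseudogenes.

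Of 23 tested cell cycle and translation targets 16 fell and 3 rose, with a median of -0.17. The mitochondrial chaperone gene HSPD1 (-0.36), the arginine methyltransferase gene PRMT1 (-0.42), the translation initiation gene EIF4G1 (-0.26) and E2F2 (-0.73) had the smallest p. The rises were CCNE1 (0.38), E2F1 (0.24) and CUL1 (0.13), named after their values were seen. CCND2 was too low to be tested. EIF4A1, which dividing cells use, is listed at 0 in every sample, so its row does not measure the gene.

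Genes listed as repressed by MYC were mostly higher. Of 15 tested members 11 rose and 1 fell, the fall being NDRG2 (-0.54), and the median log2 fold change was 0.39. Of all tested genes 27.7% rose and 28.4% fell, and this list too was chosen with earlier results of these data known. CDKN2B, which encodes the cyclin-dependent kinase inhibitor p15 and is repressed by MYC through its partner ZBTB17, was at 37.9, 37.1 and 30.8 CPM in shIFITM3 and at 7.54, 10.6 and 9.45 CPM in shControl (log2 fold change 1.90, SE 0.10, edgeR adjusted p = 9.68e-14). The 3 shIFITM3 values all lay above the control range. KLF6 (1.44), CDKN1A (1.46) and THBS1 (0.55), each also a target of other pathways, completed the 4 with the smallest p. CDKN1B, which encodes p27, was at 74.2 ± 2.52 CPM in shIFITM3 and 59.6 ± 2.44 CPM in shControl (SD, n = 3 each), a rise of 0.32 on the log2 scale (edgeR adjusted p = 4.62e-06). It was chosen after its values were seen, as was NDRG2.

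Targets of the MLX branch were mixed. Of 11 tested genes 7 rose and 4 fell, and none missed the threshold (median 0.28), while 56.1% of all tested genes were called. Under the 15 alternatives 9 to 11 genes of the list were called, the 9 without shControl replicate 2. FASN and ACLY, lipid synthesis genes that sterol-regulated factors also control, rose by 0.83 and 0.59, and the clock-related repressor gene BHLHE40 rose by 1.09. HK2, the hexokinase gene, was at 51.5, 54.5 and 56.8 CPM in shIFITM3 and at 104, 91.8 and 86.7 CPM in shControl, a fall of 0.79 on the log2 scale. It is counted in the glycolysis list too. The other falls were G6PC3 (-0.27), KLF10 (-0.18) and TKFC (-0.17). TXNIP and ARRDC4, the arrestin-like genes that are the best known MLXIP targets, rose by 0.28 and 0.23 (edgeR adjusted p = 2.46e-06 and 0.0309). TXNIP was at 169, 173 and 164 CPM in shIFITM3 and at 146, 134 and 138 CPM in shControl. TXNIP, ARRDC4, G6PC3, KLF10 and TKFC lie outside the naming rule and were named with their values known. TXNIP is in the list of repressed targets as well.

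**Figure D4:**
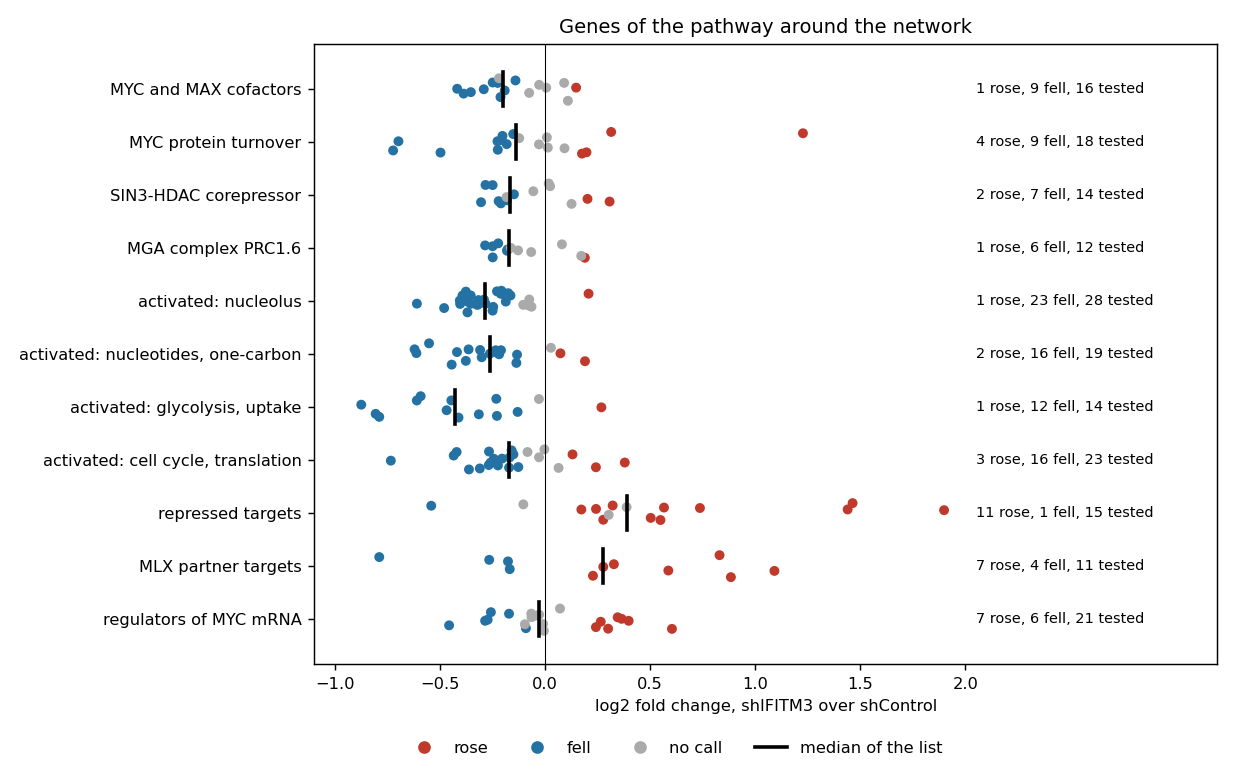
Log2 fold change, shIFITM3 over shControl, of the tested genes in 11 lists around the network (1 point per gene, vertical scatter within a list is for display). Red points rose, blue points fell, grey points did not pass an adjusted p of 0.05, and the black bar is the list's median. The 4 lists of MYC activated targets lie mostly to the left of 0, and the repressed targets mostly to the right.

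Genes for the proteins that carry out activation and repression by the network had log2 fold changes from -0.42 to 0.31. The median absolute log2 fold change of all tested genes was 0.25. Of 16 genes for MYC and MAX cofactors 9 fell and 1 rose (median -0.20). RUVBL2 and RUVBL1, which encode the ATPases of the TIP60 complex, had log2 fold changes of -0.39 and -0.23, the acetyltransferase gene KAT2A -0.35 and the chromatin remodeller gene SMARCB1 -0.29. KAT5 also fell, with the largest log2 fold change in size of the cofactor list (-0.42, edgeR adjusted p = 2.44e-05). The cofactor genes TRRAP (-0.08) and EP400 (0.09) did not pass. In the SIN3-HDAC corepressor, which the MXD proteins and MNT recruit, 7 of 14 genes fell and 2 rose (median -0.17), among the falls RBBP4 (-0.31), HDAC2 (-0.25), RBBP7 (-0.22) and SUDS3 (-0.21). The scaffold gene SIN3A did not pass (-0.06), and SIN3B rose (0.20). Of 12 genes of the MGA complex PRC1.6, 6 fell and 1 rose (median -0.17), including CBX3 (-0.29), WDR5 (-0.25) and TFDP1 (-0.18). HDAC2 and HDAC1 (-0.18) also fell and are shared with the corepressor list, and WDR5 is shared with the cofactor list. KAT5, TRRAP, EP400, HDAC1, SIN3A and SIN3B were named with their values already known. The share of genes called in either direction was 62.5%, 64.3% and 58.3% in the cofactor, corepressor and PRC1.6 lists, near the 56.1% of all tested genes. The directions were less even than over all tested genes, of which 28.4% fell and 27.7% rose, and leaned to falls in each list.

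Genes that control MYC protein stability had log2 fold changes from -0.72 to 1.23. Of 18 tested, 9 fell and 4 rose (72.2% called, median -0.14), against 28.4% and 27.7% of all tested genes (56.1% called). SKP2, a ubiquitin ligase component that acts on MYC and on p27, was at 106, 107 and 109.9 CPM in shIFITM3 and at 176, 179 and 179 CPM in shControl (log2 fold change -0.72, edgeR adjusted p = 4.87e-14). The groups were widely separate. CIP2A, whose product protects MYC from the phosphatase PP2A, and AURKA, whose product stabilises MYC family proteins, had values of -0.70 and -0.50. Both are also high in dividing cells. FBXO32, a ubiquitin ligase gene and known FOXO target, was at 30.6, 31.0 and 33.5 CPM in shIFITM3 and at 12.1, 15.4 and 12.2 CPM in shControl, a rise of 1.23 on the log2 scale (edgeR adjusted p = 2.66e-11). FBXW7, the main MYC ubiquitin ligase gene, did not pass (-0.12, edgeR adjusted p = 0.249), nor did GSK3B (0.01) or USP28 (0.01). These 3 were chosen after their values were seen.

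Of 21 regulators of MYC transcription and mRNA 7 rose and 6 fell (median -0.03), and the 61.9% called were near the 56.1% of all tested genes. IGF2BP2, which binds and protects MYC mRNA, and the receptor gene NOTCH1 rose by 0.60 and 0.35. HNRNPD, whose product binds AU-rich mRNA, and the beta-catenin gene CTNNB1 had values of -0.46 and -0.26. PVT1, the noncoding gene beside MYC on chromosome 8, was at 8.74 ± 0.506 CPM in shIFITM3 and 6.56 ± 0.990 CPM in shControl (SD, n = 3 each), a rise of 0.40 on the log2 scale (edgeR adjusted p = 0.0113). It was chosen after its values were seen.

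The genes whose profile over the 6 samples was closest to that of MYC were MBOAT2, TRAPPC1 and RAB25. Their log2 CPM, centred on each gene's mean, differed from that of MYC by a root mean square of 0.0176, 0.0188 and 0.0195, the smallest of 8474 genes compared. All 6 samples share one cell line, and the profile of MYC is nearly flat, so the measure picks flat genes with a similar small scatter. MBOAT2, for instance, was at 83.2, 88.3 and 78.5 CPM in shIFITM3 and at 78.6, 80.0 and 81.3 CPM in shControl. Of the 43 list genes named by rule, 14 have exons that overlap another gene of the table in GENCODE 29, most of them on the opposite strand, and their values carry that uncertainty.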

How the data were processed

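Raw read counts per gene were deposited by the authors in one table for all 6 samples, with no normalization. Per the submitters' processing notes, reads were handled on hg38 with HISAT2 2.2.1, featureCounts of Subread 2.0.6, SAMtools 1.20, fastp 0.23.4 and FastQC 0.12.1. Per the labels' protocols, libraries were made with a stranded mRNA kit. No source used here names the annotation or the strand setting. Among genes with 1 to 10 counts, 78.4% to 82.5% of counts were even, so a fragment may have given a pair of counts. Count limits, such as the 3 counts that a 0 allows, cover counting error only and would then be too low.

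The fit used edgeR 4.0.16 (R 4.3.3): filterByExpr by group (14018 genes kept), TMM scaling, glmQLFit on group, two-sided glmQLFTest, Benjamini-Hochberg adjustment over all tested genes and a threshold of 0.05. "Rose", "fell" and "changed" are used of single genes past it. SE is the absolute log2 fold change over the square root of F, and 95% intervals use its degrees of freedom. The code was tested on simulated data. Samples of a group differed by more than the sampling noise of independent counts (chi-square per degree of freedom 2.80 to 4.91). Pairs of counts from the same fragment would raise this value, and their part in it was not tested. Coordinates are RefSeq GRCh38.p14, exon lengths and overlaps GENCODE 29. The members and lists were chosen with earlier results of these data known. Named were the members, MYCN, MYCL, MLXIPL, IFITM3, the 4 genes of each list with the smallest p, and the 3 genes closest to MYC among those averaging 4 or more on the log2 CPM scale (0.5 CPM added). Some listed genes are not reported here. Alternatives were scaling by RLE, by upper quartile or by total count, other filters, DESeq2 1.42.0, limma-voom (limma 3.58.1), the replicate number as a block, thinning, and leaving out each sample.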

Additional observations from a re-analysis of the deposited data

How the results depend on the processing

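The 6 members that passed the test (MXD1, MXD3, MXD4, MXI1, MNT and MLXIP) kept their direction and stayed under an adjusted p of 0.05 in all 15 alternatives tried, and the number of members called was 6 or 7. MGA came under the threshold with upper-quartile scaling (log2 fold change -0.12, adjusted p = 0.0313) and with libraries thinned to the smallest total (-0.12, 0.0366), and leaving out 1 sample gave -0.13 to -0.076, with the call made without shControl replicate 3. For MYC, leaving out 1 sample gave -0.013 to 0.063, the negative value without shIFITM3 replicate 2, and none of the alternatives made it pass. MYCL, a gene outside the list, turned positive without shIFITM3 replicate 3 (0.21) and without shControl replicate 2 (0.072), within a range of -0.30 to 0.21 over the samples left out in turn. The count of genes changed was 7124 to 8082, against 7870. The replicate numbers do not show pairing (correlations of same-numbered samples 0.026, 0.047 and 0.0041), and with the replicate block 7870 genes and 6 members passed. Counts were few for MYCL, at 71, 71 and 32 in shIFITM3 and 36, 241 and 84 in shControl. The cause of its spread was not tested.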
